A study of Rattus norvegicus with 48 samples.

Results

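The constitutive proteasome subunits were taken as the genes of the deposited table whose symbols read Psma, Psmb, Psmc or Psmd followed by a number, without the interferon-induced Psmb8, Psmb9 and Psmb10 and with a mean of at least 0.5 CPM (read counts scaled to a common library size) over all libraries. The rule gave 33 of the 30211 genes in the table, and it used no difference between groups. They comprised 6 subunits of the alpha ring, 7 of the beta ring, 6 ATPases and 3 non-ATPases of the base, 8 subunits of the lid, and 3 chaperones that assist the assembly of the base (Psmd5, Psmd9 and Psmd10). The rule left out Psmb11 and Psma8 with means of 0.0982 and 0.0114 CPM, while the lowest members inside it were Psmd10 and Psmd9 with 9.38 and 35.6 CPM. Psma3 had no entry under that symbol. Psma3l, which the rule does not take in and whose relation to Psma3 was not settled here, read 173 to 260 CPM and was called neither with averaged 4OI (log2 fold change -0.01) nor with averaged Tat (-0.08).

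The 26S proteasome degrades proteins that carry a ubiquitin chain. Its barrel-shaped core particle is built of alpha and beta rings, and the beta subunits Psmb5, Psmb6 and Psmb7 hold the catalytic sites, while the regulatory particle, made of a base with a ring of ATPases and of a lid, binds, unfolds and deubiquitinates the substrate. In cells exposed to interferon, Psmb8, Psmb9 and Psmb10 take the place of the catalytic subunits to form the immunoproteasome. The transcription factors Nfe2l1 and Nfe2l2, which bind antioxidant response elements, are known regulators of proteasome genes in stressed cells.

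RNA was sequenced from primary cultures of cortical cells of Sprague-Dawley rat fetuses, dissociated at fetal day 18 and used after 21 days in vitro. The 48 libraries formed 16 groups of 3. Cultures received no Tat (Control), the HIV-1 protein Tat 1-86 at 6 ng/ml for 48 h (Tat), cocaine at 25 µM for 24 h (Cocaine), or Tat followed by cocaine (Tat-Cocaine). The Control, Tat and Tat-Cocaine conditions were each also run with 4-octyl itaconate (4OI, 250 µM), a cell-permeable itaconate ester known to activate Nfe2l2, with Amlexanox (25 µM), an inhibitor of the kinases TBK1 and IKK-epsilon, with Tazemetostat (3 µM), an inhibitor of the histone methyltransferase EZH2, or with Senicapoc (1 µM), a blocker of the potassium channel KCa3.1. Cocaine alone was not combined with a compound, and the compounds were given at 1 dose each, so that differences between them are differences between the treatments as given. Nothing in the labels shows that the 3 cultures of a group came from separate litters or preparations, so the p-values measure the spread between these samples, which may be technical.

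Libraries held 17.5 to 29.1 M reads assigned to genes, by back-calculation from the CPM steps, so 0.5 CPM stood for 8.58 to 15 reads. Nqo1, a target of Nfe2l2 used to check the 4OI label, read 402 to 606 CPM in the 9 libraries with 4OI and 61.2 to 143 CPM in the other 39. The labels call the cells neurons, and all 12 neuronal markers were above 0 in every library, as were all markers of astrocytes, microglia, oligodendrocytes and dividing cells. The summed microglial markers ranged from 639 to 6978 CPM and the summed neuronal markers from 1205 to 5071 CPM, and 1 Cocaine library stood apart with 25395 CPM of oligodendrocyte markers against a median of 676 CPM. In such bulk samples, fewer cells of a type and less RNA per cell cannot be told apart.

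All 33 subunits were above 0 in every library and passed the filter on low values. The lowest single value was 6.66 CPM, in Psmd10, a gene read 131 to 361 times per library. Together the subunits summed to 3962 to 4995 CPM, or 0.402 to 0.492% of a library. The levels moved little between treatments: the ratio of the highest to the lowest of the 16 group means had a median of 1.32 over the subunits, and it was under 1.5 for 30 of them. The highest ratio was 1.87, in Psmd5. Tat-Senicapoc was the lowest group for 13 subunits, and Amlexanox was the highest for 10. The subunit sum was 4064 to 4267 CPM in Control, 4400 to 4995 CPM in 4OI, 4427 to 4566 CPM in Tat and 3962 to 4284 CPM in Tat-Senicapoc. As a share of the library it was 0.436 to 0.438% in Control, 0.424 to 0.492% in 4OI and 0.433 to 0.454% in Tat. On that scale these 3 groups overlapped. The share in Tat-Senicapoc was 0.402 to 0.419%.

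With 4OI, a pair of genes, Psmd5 and Psmd11, was higher in every culture treated than in any culture that was not. Psmd5 is a chaperone that binds the base ATPase Psmc2 during assembly, and Psmd11 is a scaffold subunit of the lid known to set how much 26S proteasome is assembled. The 250 bases before the start of both genes are shown, together with those of Psmd1 and Psmb5. The windows were searched for TGACNNNGC, a core of the antioxidant response element, and those of Psmd1 and Psmb5 hold it. The sequences are from RefSeq on the build GRCr8, read 5′ to 3′ on the strand of the gene, with matches to TGACNNNGC on either strand in capitals. They lie at chr3:38548491-38548740 on the minus strand (Psmd5), chr10:65932093-65932342 on the plus strand (Psmd11), chr9:94157721-94157970 on the plus strand (Psmd1) and chr15:32047380-32047629 on the minus strand (Psmb5).
Psmd5: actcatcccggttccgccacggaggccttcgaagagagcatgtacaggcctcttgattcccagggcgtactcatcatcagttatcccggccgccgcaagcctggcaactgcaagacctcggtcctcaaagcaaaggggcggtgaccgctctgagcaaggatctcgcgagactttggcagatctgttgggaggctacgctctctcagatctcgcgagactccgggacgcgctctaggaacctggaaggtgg
Psmd11: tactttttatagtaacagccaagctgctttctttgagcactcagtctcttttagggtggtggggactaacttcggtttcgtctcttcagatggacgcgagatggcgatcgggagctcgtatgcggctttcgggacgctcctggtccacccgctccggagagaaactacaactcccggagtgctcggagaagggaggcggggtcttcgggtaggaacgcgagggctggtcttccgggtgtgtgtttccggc
Psmd1: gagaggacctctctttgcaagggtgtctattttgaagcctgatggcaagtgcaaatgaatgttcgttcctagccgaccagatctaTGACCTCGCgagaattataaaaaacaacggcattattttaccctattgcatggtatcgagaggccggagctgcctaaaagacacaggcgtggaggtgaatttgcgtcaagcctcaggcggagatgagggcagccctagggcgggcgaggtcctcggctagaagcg
Psmb5: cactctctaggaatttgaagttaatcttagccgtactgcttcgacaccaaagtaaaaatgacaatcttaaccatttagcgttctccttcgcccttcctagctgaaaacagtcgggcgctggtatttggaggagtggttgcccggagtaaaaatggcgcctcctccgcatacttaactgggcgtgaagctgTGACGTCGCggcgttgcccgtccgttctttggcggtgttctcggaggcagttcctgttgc
No full match to TGACNNNGC stood in the windows of Psmd5 and Psmd11, on either strand. The Psmd1 match TGACCTCGC began 165 bases before the start, and the Psmb5 match TGACGTCGC began 60 bases before it. RefSeq windows that also cover 50 bases after the start were found for 29 of the 33 subunits, all but Psma7, Psmd6, Psmd12 and Psmd14, and 6 of the 29 held the core (Psmb2, Psmb5, Psmb6, Psmd1, Psmd3 and Psmd9), or 20.7%, against 12.1% of all 33469 windows. No other motif and no looser form of this core was searched, and the search covered these windows only. Whether Nfe2l1 or Nfe2l2 acts on any of these genes was not tested.

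Psmd5 read 63.5, 73.5 and 73.4 CPM in Control and 117, 113 and 107 CPM in 4OI. In Tat it read 60.2, 60.9 and 66.6 CPM, against 119, 98.4 and 114 CPM in Tat-4OI. In Tat-Cocaine it read 67.8, 74.8 and 64.7 CPM, against 120.3, 113 and 113 CPM in Tat-Cocaine-4OI. Every library with 4OI lay above every library without it, the 9 spanning 98.4 to 120.3 CPM and the other 39 spanning 59.0 to 85.0 CPM. The mean of the 3 differences made by 4OI was a log2 fold change of 0.74 ± 0.050 (SE), or 1.68-fold (limma on all 48 libraries, adjusted p = 8.18e-14). The difference was 0.68 over Control (adjusted p = 1.59e-06), 0.81 over Tat (adjusted p = 3.1e-08) and 0.74 over Tat-Cocaine (adjusted p = 2.78e-07). The 13 groups without 4OI had means of 61.8 CPM (Tat-Senicapoc) to 74.3 CPM (Senicapoc), and the 3 groups with it 110.6 to 115.6 CPM. In the RefSeq annotation the gene shares 296 bases with Cutal, which was not a symbol of the table. The library kit marks the strand, but whether the counting used it is not given in the sources used here.

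Psmd11 read 101, 104 and 97.6 CPM in Control and 135, 127 and 136 CPM in 4OI. The values were 107, 112 and 113 CPM in Tat against 136, 132 and 133 CPM in Tat-4OI, and 104.5, 104.4 and 106.6 CPM in Tat-Cocaine against 137, 122 and 133 CPM in Tat-Cocaine-4OI. Again the groups did not overlap: the 9 libraries with 4OI spanned 122 to 137 CPM and the other 39 spanned 92.1 to 119.7 CPM. The mean log2 fold change was 0.32 ± 0.034 (SE), or 1.25-fold (adjusted p = 6.13e-09), from differences of 0.40 over Control, 0.26 over Tat and 0.31 over Tat-Cocaine (adjusted p = 2.34e-05, 0.00215 and 0.000725). Psmd5 and Psmd11 were 2 of the 33 subunits whose 9 libraries with 4OI all lay above the 39 others, and over all 15890 genes tested this held for 71, or 0.447%.

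**Figure D1:**
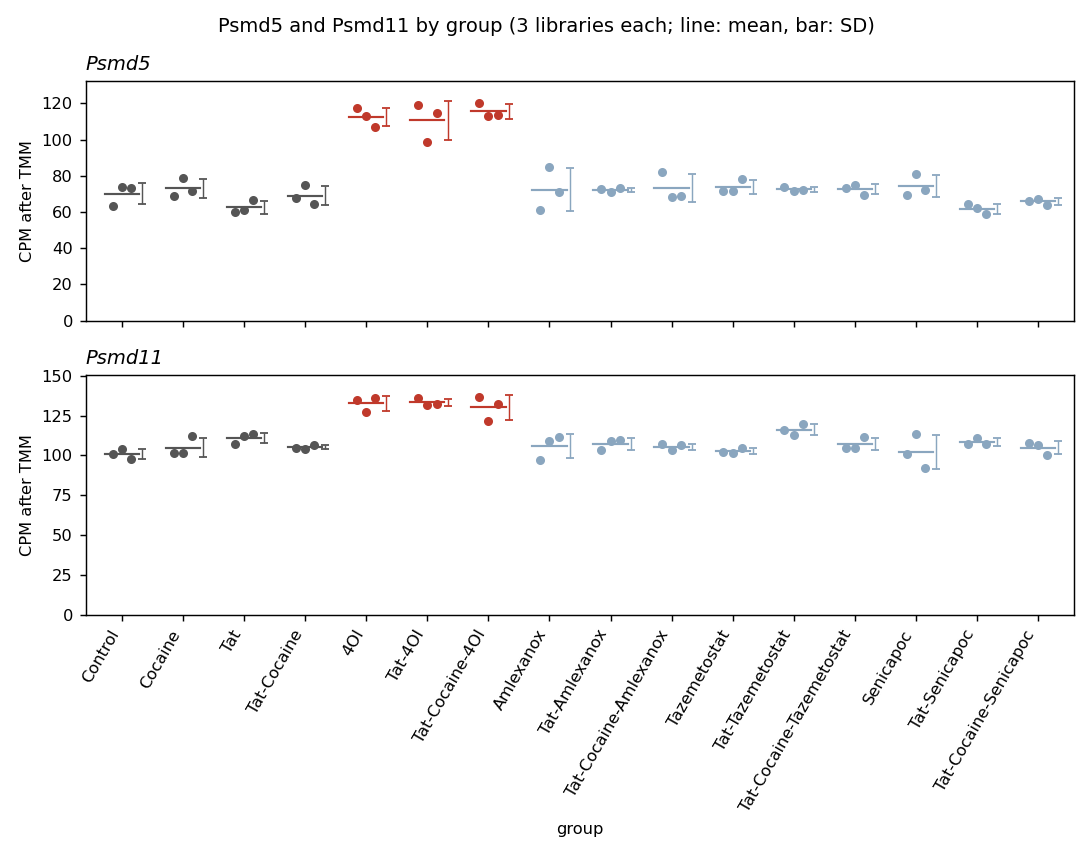
Level of Psmd5 (top) and Psmd11 (bottom) in CPM after TMM scaling in each of the 16 groups, with a point per library, a line at the group mean and a bar for the SD (n = 3). Red marks the groups with 4OI, dark grey those with no compound and light blue the other compounds; the 9 red points span 98.4 to 120.3 CPM for Psmd5 and 122 to 137 CPM for Psmd11, above all others.

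In the cultures without Tat or cocaine, all 33 subunits had a positive log2 difference between 4OI and Control, with a median of 0.16. Over all genes tested the median was 0.00467, and 51.0% were positive. The subunits varied together between cultures of a group, so their signs are not independent. Of the 33 subunits 8 passed the test, all higher, or 24.2%, where 3.15% of all genes tested were called. They were the chaperone Psmd5, the lid subunits Psmd11 (0.40), Psmd14 (0.30) and Psmd12 (0.24), the base subunits Psmd2 (0.28), Psmd1 (0.26) and Psmc1 (0.19), and the beta subunit Psmb3 (0.24). Psmd14, the deubiquitinase of the lid, read 98.9, 97.6 and 96.5 CPM in Control and 122, 112 and 127 CPM in 4OI, with no overlap (adjusted p = 0.000178). Psmd2, a large scaffold of the base that binds ubiquitin-like domains, read 245, 266 and 286 CPM in Control and 325, 305 and 335 CPM in 4OI, also without overlap (adjusted p = 0.0348). The calls of Psmd5, Psmd11 and Psmd14 held without each of the 6 libraries in turn. Those of the other 5 did not, and the count was 3 without Control replicate 2, 4OI replicate 1 or 4OI replicate 3, 5 without Control replicate 1 or 3, and 12 without 4OI replicate 2. The count was 3 when each library was rescaled to the same CPM total and 23 of the 33 differences were then positive, with a median of 0.076. Same-numbered cultures of these 2 groups deviated together, and with the replicate number as a block the count was 10. In fits to the 2 groups alone it was 1 both with and without the block.

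With Tat or Tat-Cocaine as the background, 2 subunits were higher with 4OI, in both cases Psmd5 and Psmd11. Between Tat-4OI and Tat 2 subunits rose and 2 fell, 12.1% of the subunits against 15.6% of all genes tested, and 14 of the 33 differences were positive, with a median of -0.04. Those that fell were alpha subunits. Psma6 read 255, 295 and 285 CPM in Tat and 211, 218 and 216 CPM in Tat-4OI, the 3 treated libraries all below, with a log2 fold change of -0.37 ± 0.1 (SE) and an adjusted p of 0.0112. Psma2 read 167, 185 and 195 CPM in Tat and 154, 144 and 154 CPM in Tat-4OI, again without overlap (log2 fold change -0.27, adjusted p = 0.0126). Without Tat replicate 2 neither of these falls was called, and that of Psma2 was lost also without Tat replicate 3. Between Tat-Cocaine-4OI and Tat-Cocaine, Psmd5 and Psmd11 were the 2 subunits called, both higher, where 7.36% of all genes tested were called, and the count was 4 without Tat-Cocaine replicate 3.

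Whether the 4OI difference itself changed with the background was tested directly. With Tat, the difference was smaller than without it for 32 of the 33 subunits, with a median of -0.20 on the log2 scale. Over all genes tested the median was -0.03, and 46.1% had a larger difference with Tat. No subunit passed the adjusted threshold (0.497% of all genes tested did). At an unadjusted p under 0.05 there were 15, and the nearest was Psmb3 at -0.39 ± 0.099 (SE, adjusted p = 0.057). The count was 1 without Control replicate 1 and 2 without 4OI replicate 2. With Tat-Cocaine the difference was smaller for 30 of the 33, while it was larger for 43.7% of all genes tested. No subunit was called, with 5 at an unadjusted p under 0.05 and 0.113% of all genes tested called. Both contrasts shared the 4OI and Control cultures, whose Control libraries had the lower subunit sums in CPM, while the shares of the library overlapped. Psmd5 was the exception in direction with Tat, its 4OI difference being larger by 0.13.

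Averaged over the 3 backgrounds, 4OI raised 7 subunits and lowered 1, 24.2% of the subunits against 22.8% of all genes tested, so the share called was close to that of the transcriptome. All 7 belonged to the regulatory particle or its chaperones, with 6 of 17 regulatory subunits higher and 0 of 13 core subunits higher. Besides Psmd5 and Psmd11 they were the lid subunits Psmd7 (0.23), Psmd12 (0.14) and Psmd14 (0.13) and the base subunits Psmd2 (0.20) and Psmd1 (0.14). Psmd7, the partner of Psmd14 in the lid, spanned 91.0 to 113 CPM in the 9 libraries with 4OI and 80.9 to 96.3 CPM in the 9 reference libraries, and 7 of the treated lay above every reference (adjusted p = 0.000135). Psmd2 spanned 305 to 335 CPM against 245 to 321 CPM, with 6 above every reference (adjusted p = 0.00111). The alpha subunit Psma6 fell by 0.18 on the log2 scale (adjusted p = 0.0241), a call lost when Tat replicate 2, Control replicate 2, Tat-Cocaine replicate 2, 4OI replicate 3 or Tat-Cocaine-4OI replicate 3 was left out. Rescaling each library to the same CPM total gave 4 higher and 3 lower, and quantile normalization gave 6 higher and 2 lower. Psmd1, Psmd12 and Psmd14 were not called under the first of these or without the Control background, where 4 rose and 2 fell.

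The catalytic subunits Psmb5, Psmb6 and Psmb7 were not called with averaged 4OI or in any single background. Over Control their log2 differences with 4OI were 0.03, 0.16 and 0.14. Psmb5, which carries the chymotrypsin-like site, read 80.0, 79.6 and 73.4 CPM in Control and 84.7, 74.9 and 78.3 CPM in 4OI, 80.8, 77.3 and 81.0 CPM in Tat and 75.6, 71.5 and 80.0 CPM in Tat-4OI, and 78.4, 74.2 and 75.9 CPM in Tat-Cocaine and 79.2, 83.4 and 83.1 CPM in Tat-Cocaine-4OI. Psmb6, with the caspase-like site, read 98.5, 96.8 and 85.7 CPM in Control and 114, 101 and 100.1 CPM in 4OI, and its values in the 4 other groups lay between 88.7 and 105.9 CPM. Psmb7, with the trypsin-like site, read 128, 113 and 101 CPM in Control and 138, 118 and 121 CPM in 4OI, and 87.0 to 115 CPM in the others. Treated and reference libraries overlapped for all 3 genes except for Psmb6 between Control and 4OI and Psmb5 between Tat-Cocaine and Tat-Cocaine-4OI. The averaged 4OI effect was 0.02 on the log2 scale for Psmb5 (95% confidence interval -0.05 to 0.09), 0.04 for Psmb6 (-0.07 to 0.14) and 0.03 for Psmb7 (-0.09 to 0.14). As folds these intervals ran from 0.967 to 1.06, from 0.951 to 1.1 and from 0.941 to 1.1. An averaged change as large as that of Psmd11 lay outside all 3.

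The effect of 4OI was next set against that of the other compounds, as given. Psmd5 exceeded its average change with Amlexanox by 0.64, with Tazemetostat by 0.62 and with Senicapoc by 0.75 on the log2 scale (adjusted p = 4.36e-12, 9.27e-12 and 6.91e-14). For Psmd11 the differences were 0.31, 0.28 and 0.33 (adjusted p = 1.02e-08, 8.22e-08 and 2.81e-09), and for Psmd14 0.17, 0.20 and 0.16 (adjusted p = 4.04e-05, 2.27e-06 and 9.93e-05). These 3 subunits were called in all 3 contrasts, which share the 4OI cultures. In all, 5 subunits were higher and 2 lower with 4OI than with Amlexanox (25.9% of all genes tested called), 7 higher and 2 lower than with Tazemetostat (43%), and 7 higher and 0 lower than with Senicapoc (25.4%). Those lower than with Amlexanox were the beta subunits Psmb1 (-0.13) and Psmb4 (-0.12), and both calls were lost in some fits without 1 library.

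Tat moved subunits in both directions. Averaged over cultures with no compound and with each of the 4 compounds, Tat lowered 14 subunits and raised 10, 72.7% of the subunits against 56.5% of all genes tested. The directions differed by place in the complex: of the 13 core subunits 2 rose and 9 fell, with a median log2 fold change of -0.10, and of the 17 regulatory subunits 8 rose and 4 fell, with a median of 0.06. No averaged change reached 0.25 on the log2 scale. The average rests on 30 libraries and that of 4OI on 18, so their counts are not like for like: in comparisons of 3 and 3 libraries, Tat against Control called 5 subunits and 4OI against Control 8. Rescaling each library to the same CPM total gave 5 higher and 16 lower, and quantile normalization 6 higher and 15 lower, and without the Tat and Control cultures 5 rose and 13 fell.

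Of the core subunits, the catalytic Psmb7 fell the most. It spanned 93.2 to 112 CPM (median 99.6) in the 15 libraries with Tat and 100.2 to 138 CPM (median 119) in the 15 without, and 8 of the former lay below all of the latter. Its log2 fold change was -0.24 ± 0.044 (SE, adjusted p = 2.09e-05), and it was negative in 5 of 5 backgrounds, in 4 of them without overlap. The alpha subunit Psma7 behaved much alike, at 131 to 165 CPM (median 153) with Tat and 153 to 197 CPM (median 174) without, a log2 fold change of -0.22 ± 0.033 (SE, adjusted p = 1.55e-06), lower in 5 of 5 backgrounds and without overlap in 4. Psma5 (-0.17), Psma4 (-0.12), Psma2 (-0.09), Psmb1 (-0.12), Psmb4 (-0.12), Psmb3 (-0.10) and Psmb6 (-0.10) were also lower. Psmb6 was lower in 3 of 5 backgrounds, and its call was lost in 9 of 30 fits that left out 1 library. The exceptions in the core were Psma6, higher by 0.16 (201 to 295 CPM against 177 to 251 CPM), and Psmb2, higher by 0.11. Psmb5 and Psma1 did not pass the test.

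In the regulatory particle, Psmd2 rose the most, from 241 to 335 CPM (median 275) without Tat to 274 to 339 CPM (median 312) with it (log2 fold change 0.17 ± 0.034 SE, adjusted p = 9.56e-05). The ranges overlapped widely, and 1 library with Tat lay above all those without it. Psmd1 (0.13), the deubiquitinase Psmd14 (0.11), the ATPases Psmc1 (0.11) and Psmc4 (0.10), the ubiquitin receptor Psmd4 (0.10), and the lid subunits Psmd11 (0.09) and Psmd3 (0.06) also rose. The 4 regulatory subunits that fell were the ATPases Psmc6 (-0.21) and Psmc2 (-0.09) and the lid subunits Psmd6 (-0.15) and Psmd8 (-0.14). Psmd8 was lower in 5 of 5 backgrounds, at 112 to 135 CPM with Tat against 125 to 152 CPM without. Psmd5 fell by 0.09 on the log2 scale (adjusted p = 0.041), a call lost in 14 of 30 fits that left out 1 library.

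**Figure D2:**
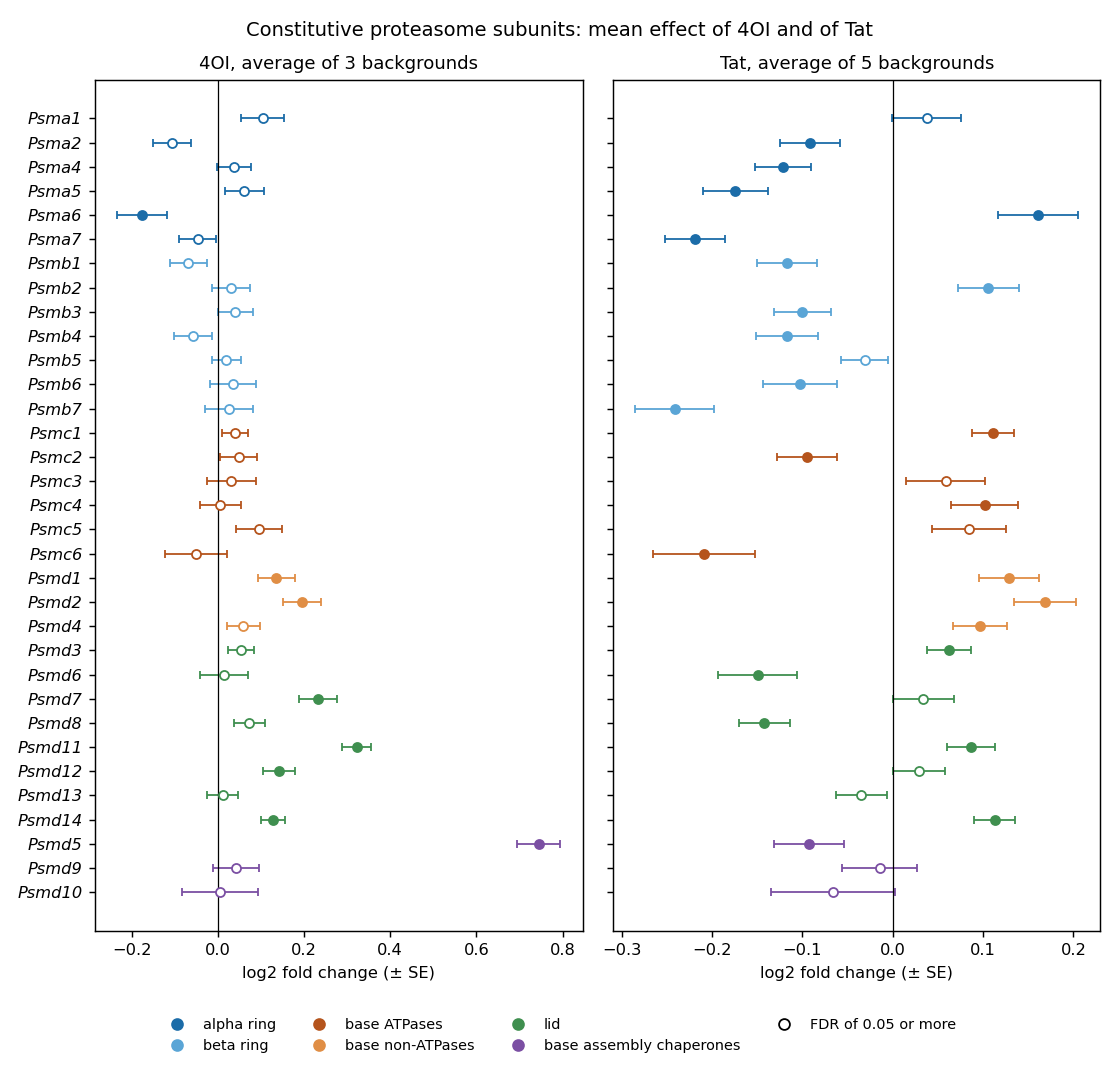
Log2 fold change (± SE) of each subunit with 4OI, averaged over 3 backgrounds (left), and with Tat, averaged over 5 backgrounds (right), by place in the complex; filled points passed an adjusted p of 0.05 in limma over 15890 genes. With 4OI 7 points are filled on the right of 0, Psmd5 (0.74) and Psmd11 (0.32) the farthest, and Psma6 on the left (-0.18), and with Tat 9 of 13 core subunits are filled on the left of 0.

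The change with Tat in the gap between the core and the regulatory particle was described in each of the 5 backgrounds. Whether it differed between them was not tested. The mean log2 level of the core less that of the regulatory particle was lower with Tat by 0.19 in the presence of Amlexanox and by 0.14 in that of Senicapoc, in both cases without overlap between the 3 and 3 libraries. With no compound, 4OI or Tazemetostat the libraries overlapped, and the difference fell by 0.02, 0.08 and 0.09. Averaged over the 5 backgrounds, Tat came with higher markers of microglia (8 of 12 higher, 0 lower, median 0.54) and of dividing cells (5 of 5 higher). Markers of neurons were lower (7 of 12 lower, 0 higher, median -0.36). Of all genes tested, 29.9% were called higher and 26.7% lower. Of the astrocyte markers 2 of 8 were higher and 4 lower, and their sum did not overlap between Tat (7017 to 9392 CPM) and Control (10452 to 12477 CPM). The summed microglial markers spanned 2422 to 4446 CPM in Tat and 1809 to 3410 CPM in Control, and the neuronal ones 1675 to 3112 CPM and 3019 to 4713 CPM. Their part in the subunit differences was not tested.

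Without a compound, the pattern of the average was not seen. Between Tat and Control 5 subunits rose and 0 fell, 15.2% of the subunits against 21.3% of all genes tested, with a core median of 0.09 and a regulatory median of 0.10. Psma6 read 204, 239 and 187 CPM in Control and 255, 295 and 285 CPM in Tat, without overlap (log2 fold change 0.41 ± 0.1 SE, adjusted p = 0.00285). Psmb2 read 83.9, 88.8 and 78.6 CPM in Control and 91.7, 100.3 and 101 CPM in Tat (0.22, adjusted p = 0.0338), and Psmd14 98.9, 97.6 and 96.5 CPM and 112, 114 and 112 CPM (0.20, adjusted p = 0.00354). Each of these 3 genes was higher in all 3 Tat libraries than in any Control. The other 2 were Psmd4 (0.19) and Psmc1 (0.18). Rescaling each library to the same CPM total left 1 call, and without Tat replicate 2 or Control replicate 1 there were 3.

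Tat-Cocaine against Control gave 4 subunits, all higher, or 12.1% against 14.9% of all genes tested. Psma6 read 235, 293 and 248 CPM in Tat-Cocaine and overlapped Control by 1 library (log2 fold change 0.30, adjusted p = 0.0352). Psmd14 at 108, 112 and 106 CPM lay above all Control libraries (0.16, adjusted p = 0.0315), and so did Psmd12, at 104, 108 and 107 CPM against 96.9, 90.3 and 92.5 CPM (0.19, adjusted p = 0.0442). The other was Psmc1 (0.15). These calls rested on single libraries: without any 1 of the 6 the count was 0 to 2, and it was 0 when Control replicate 3 or Tat-Cocaine replicate 2 was left out. Same-numbered cultures deviated together here, and with the replicate block the count was 5. In fits to the 2 groups alone it was 0 both with and without the block.

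Cocaine gave few calls. No subunit passed the test between Cocaine and Control (limma, 2 at an unadjusted p under 0.05, 0.201% of all genes tested called) or between Tat-Cocaine and Tat (0 at an unadjusted p under 0.05, 0.0189%). The Cocaine result was 0 also without each single library, the one rich in oligodendrocyte markers included. Averaged over the 5 Tat backgrounds, cocaine raised Psmb3 by 0.11 (adjusted p = 0.0309) and Psmd8 by 0.10 (adjusted p = 0.0385), 6.06% of the subunits against 4.55% of all genes tested. Both are on the scale of the spread between cultures, and the count was 0 or 1 in 16 of 30 fits that left out 1 library.

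Amlexanox raised 5 subunits over Control and lowered 0, 15.2% of the subunits against 11.4% of all genes tested. The assembly chaperone Psmd10, a low gene, read 8.86, 9.12 and 6.76 CPM in Control and 9.73, 12.2 and 12.6 CPM in Amlexanox, without overlap (log2 fold change 0.46 ± 0.153 SE, adjusted p = 0.0461). Psma5 read 136, 123 and 116 CPM in Control and 130.1, 155 and 169 CPM in Amlexanox (0.27, adjusted p = 0.0233), and Psma1 136, 126 and 128 CPM and 128, 176 and 167 CPM (0.26, adjusted p = 0.0438). In both genes Amlexanox replicate 1 lay within the Control range, and the other 2 cultures lay above it. Psmc2 (0.22) and Psmd12 (0.21) were the others. The count rose to 12 when Amlexanox replicate 1 was left out, fell to 1 when Control replicate 2 was, and was 0 when Control replicate 3, Amlexanox replicate 2 or Amlexanox replicate 3 was. No subunit was called between Tat-Amlexanox and Tat (0.837% of all genes tested, 4 subunits at an unadjusted p under 0.05) or between Tat-Cocaine-Amlexanox and Tat-Cocaine (0.925%, 3 subunits), the latter with 2 calls without Tat-Cocaine replicate 3. Same-numbered Tat and Tat-Amlexanox cultures deviated together, and the block gave 3 calls, 2 higher and 1 lower. On average over the 3 backgrounds, the ATPase Psmc5 (0.20, adjusted p = 0.017) and the lid subunits Psmd7 (0.18, adjusted p = 0.00674) and Psmd12 (0.14, adjusted p = 0.0174) were higher, 9.09% of the subunits against 7.99% of all genes tested. The count was 1 without Amlexanox replicate 3 and 6 without Amlexanox replicate 1.

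With Tazemetostat no gene of the whole table passed the test over Control or over Tat (limma, 0 of 15890 genes in both, with 1 and 2 subunits at an unadjusted p under 0.05). Over Tat-Cocaine it raised 3 subunits and lowered 3, 18.2% of the subunits against 28.7% of all genes tested. The ATPase Psmc6 read 151, 175 and 119.6 CPM in Tat-Cocaine and 108, 110.1 and 115 CPM in Tat-Cocaine-Tazemetostat, all below (log2 fold change -0.40 ± 0.126 SE, adjusted p = 0.0205). The lid subunit Psmd6 read 143, 164 and 123 CPM and then 117, 112 and 109 CPM (-0.33, adjusted p = 0.0152), and Psmb7 115, 115 and 94.0 CPM and then 84.9, 88.1 and 85.6 CPM (-0.32, adjusted p = 0.0189). None of these 3 overlapped between the groups. Psmd2 rose from 264, 263 and 318 CPM to 337, 336 and 337 CPM (0.26, adjusted p = 0.0152), Psmc4 from 91.2, 99.3 and 108 CPM to 116, 121 and 111 CPM (0.22, adjusted p = 0.041), and Psmd4 from 101, 108 and 112 CPM to 126, 129 and 118 CPM (0.21, adjusted p = 0.0207), again without overlap. Without Tat-Cocaine replicate 1, Tat-Cocaine replicate 2 or Tat-Cocaine-Tazemetostat replicate 2 the count was 0, and without Tat-Cocaine-Tazemetostat replicate 1 it was 3. In this comparison the neuronal markers were lower in 10 of 12 and the microglial ones higher in 5 of 12. Of all genes tested, 13.4% were called lower and 15.2% higher. Summed neuronal markers were at 1205 to 1809 CPM and microglial ones at 4462 to 6913 CPM in the treated group. The summed markers of dividing cells were at 191 to 226 CPM against 65.3 to 129 CPM in Tat-Cocaine, and those of oligodendrocytes at 158 to 254 CPM against 433 to 1939 CPM, both without overlap. The part of these markers in the result was not tested. The average over the backgrounds called Psmd4 (0.16, adjusted p = 0.0123) and Psmc6 (-0.22, adjusted p = 0.0437), 6.06% of the subunits against 11.4% of all genes tested, and neither without the Tat-Cocaine-Tazemetostat cultures. Rescaling each library to the same CPM total gave 1 higher and 4 lower, and the count was 1 in 10 of the fits without 1 library, 4 without Control replicate 3 and 5 without Tat-Cocaine replicate 3.

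Senicapoc differed from Control in 0 of 15890 genes (limma, 2 subunits at an unadjusted p under 0.05), and Tat-Cocaine-Senicapoc differed from Tat-Cocaine in no subunit (2 at an unadjusted p under 0.05, 0.0441% of all genes tested called), against 2 without Tat-Cocaine replicate 3. With Tat, 2 subunits fell, 6.06% against 0.409% of all genes tested. Psma2 read 167, 185 and 195 CPM in Tat and 140.3, 149 and 144 CPM in Tat-Senicapoc (log2 fold change -0.33 ± 0.075 SE, adjusted p = 0.0467), and Psmb3 read 125, 128 and 123 CPM and then 99.8, 107 and 100.5 CPM (-0.29 ± 0.070 SE, adjusted p = 0.0496). The groups did not overlap for either. All 13 core subunits had negative differences in this comparison, with a median of -0.25. Of the 17 regulatory subunits 12 were negative, with a median of -0.06. Over all genes tested the median was -0.03, and 44.7% of the differences were positive. Core subunits varied together between cultures of a group, so 13 shared signs are not 13 separate results. At an unadjusted p under 0.05 were 16 of the 33 subunits, against 18.3% of all genes tested. Both calls lay at the edge of the threshold. The count was 1 without Tat replicate 1 and 0 without any other 1 of the 6 libraries. On average over the 3 backgrounds all 13 core subunits were negative with Senicapoc, while 50.5% of all genes tested were positive. Senicapoc called no subunit (10 at an unadjusted p under 0.05, 1.16% of all genes tested called), with Psma6 nearest at -0.21 ± 0.057 (SE, adjusted p = 0.0592). This count was 3 without Tat replicate 1 or Tat-Cocaine replicate 3, 2 without Senicapoc replicate 2 and 1 without Control replicate 3.

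**Figure D3:**
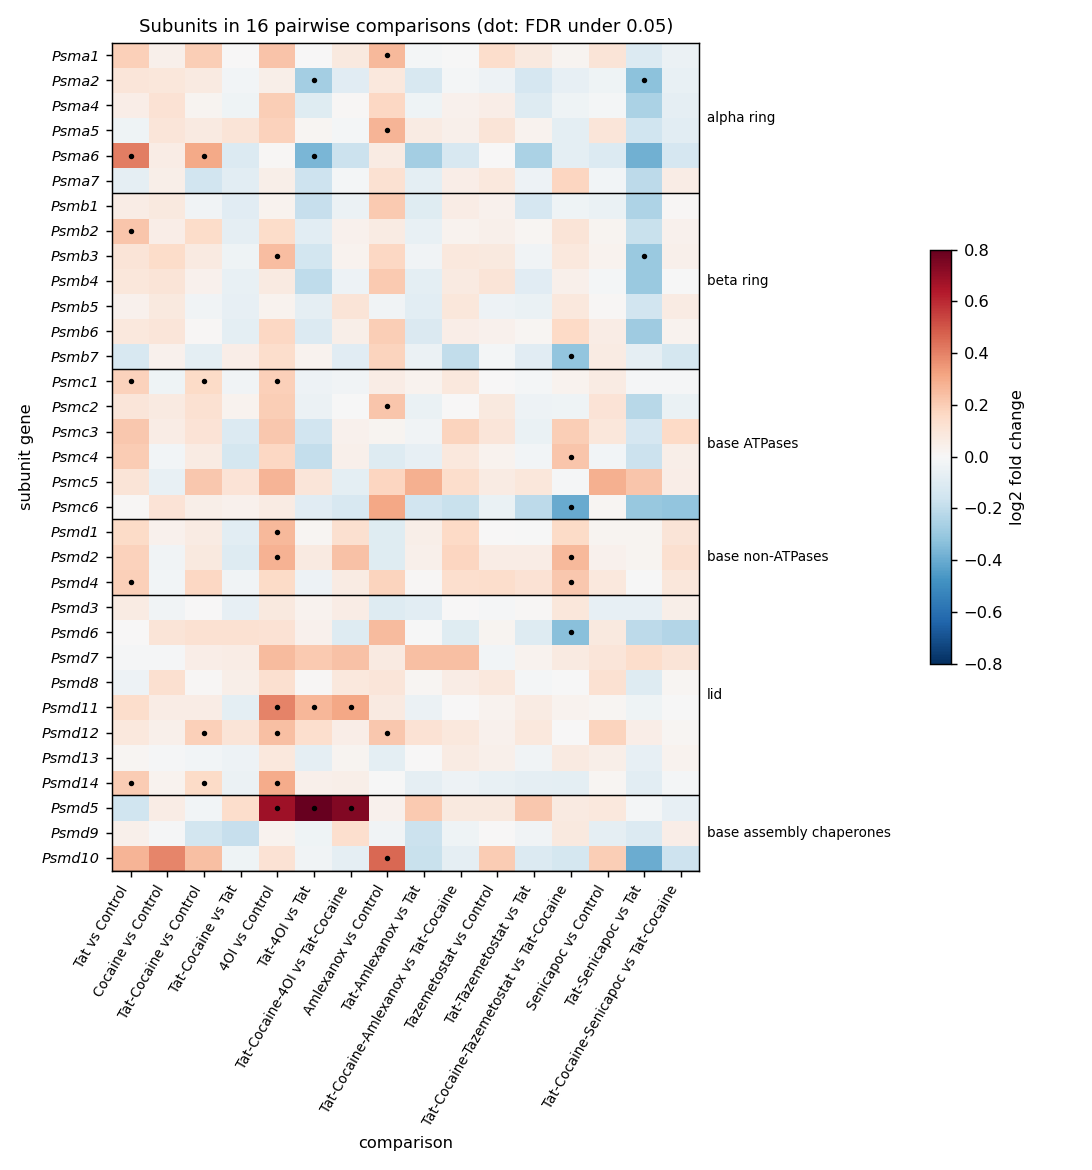
Log2 fold change of the 33 subunits (down, by place in the complex) in the 16 pairwise comparisons (across), from blue at -0.8 to red at 0.8, with a dot where the adjusted p was under 0.05. Psmd5 is dotted in the 3 comparisons with 4OI, up to 0.81, and the other fields run from -0.40 to 0.46.

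The interferon-induced catalytic subunits, which the rule left out, were measured beside their constitutive counterparts. Psmb8, the counterpart of Psmb5, read 15.5, 43.3 and 18.0 CPM in Control, 44.6, 63.4 and 68.8 CPM in Tat and 29.5, 31 and 32.7 CPM in Tat-4OI. Control replicate 2 was the highest of its group here and also in Psmb9 (73.6 CPM against 22 and 33.3) and Psmb10 (61.5 CPM against 23.2 and 34.2). Averaged over backgrounds, Tat raised all 3: Psmb8 by 1.21 (adjusted p = 1.75e-08), Psmb9 by 0.86 (adjusted p = 9.05e-06) and Psmb10 by 0.42 (adjusted p = 0.0142) on the log2 scale. Psmb8 was higher with Tat in 5 of 5 backgrounds without overlap, and its counterpart Psmb5 was not called. Psmb9 and Psmb10 were also higher in 5 of 5, without overlap in 3 and 0 of them. Their counterparts Psmb6 and Psmb7 fell on average over the same libraries, Psmb7 in 5 of 5 backgrounds and Psmb6 in 3 of 5. The Psmb6 call was lost in 9 of 30 fits that left out 1 library. The averaged effect of 4OI was a fall by 0.80 for Psmb8 (adjusted p = 0.00176), by 0.64 for Psmb9 (adjusted p = 0.013) and by 0.55 for Psmb10 (adjusted p = 0.0316), the last lost in 10 of 18 fits that left out 1 library. In single backgrounds 1 of these 4OI differences passed, that of Psmb10 between Tat-4OI and Tat (-0.93, adjusted p = 0.0484), a call lost without Tat replicate 1 or 2 or Tat-4OI replicate 1 or 3.

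The subunits of the 11S activator, Psme1 and Psme2, known to be induced by interferon, moved the same way, higher with Tat by 0.53 and 0.65 and lower with 4OI by 0.36 and 0.51 on the log2 scale. Of the 5 activators and inhibitors all 5 rose with Tat, Psme3 (0.17), Psme4 (0.24) and the inhibitor Psmf1 (0.24) included, and with 4OI Psme4 rose by 0.23. Of all genes tested, 29.9% were called higher with averaged Tat. Microglial markers moved beside these genes: with 4OI 10 of 12 were lower and 0 higher, with a median of -0.95. With averaged 4OI 11.8% of all genes tested were called lower. The sum of the microglial markers was 970 to 2300 CPM in Tat-4OI against 2422 to 4446 CPM in Tat, and 639 to 2096 CPM in Tat-Cocaine-4OI. None of the 12 was at 0 in any library. Their part in the changes of the immunoproteasome and the activators was not tested.

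**Figure D4:**
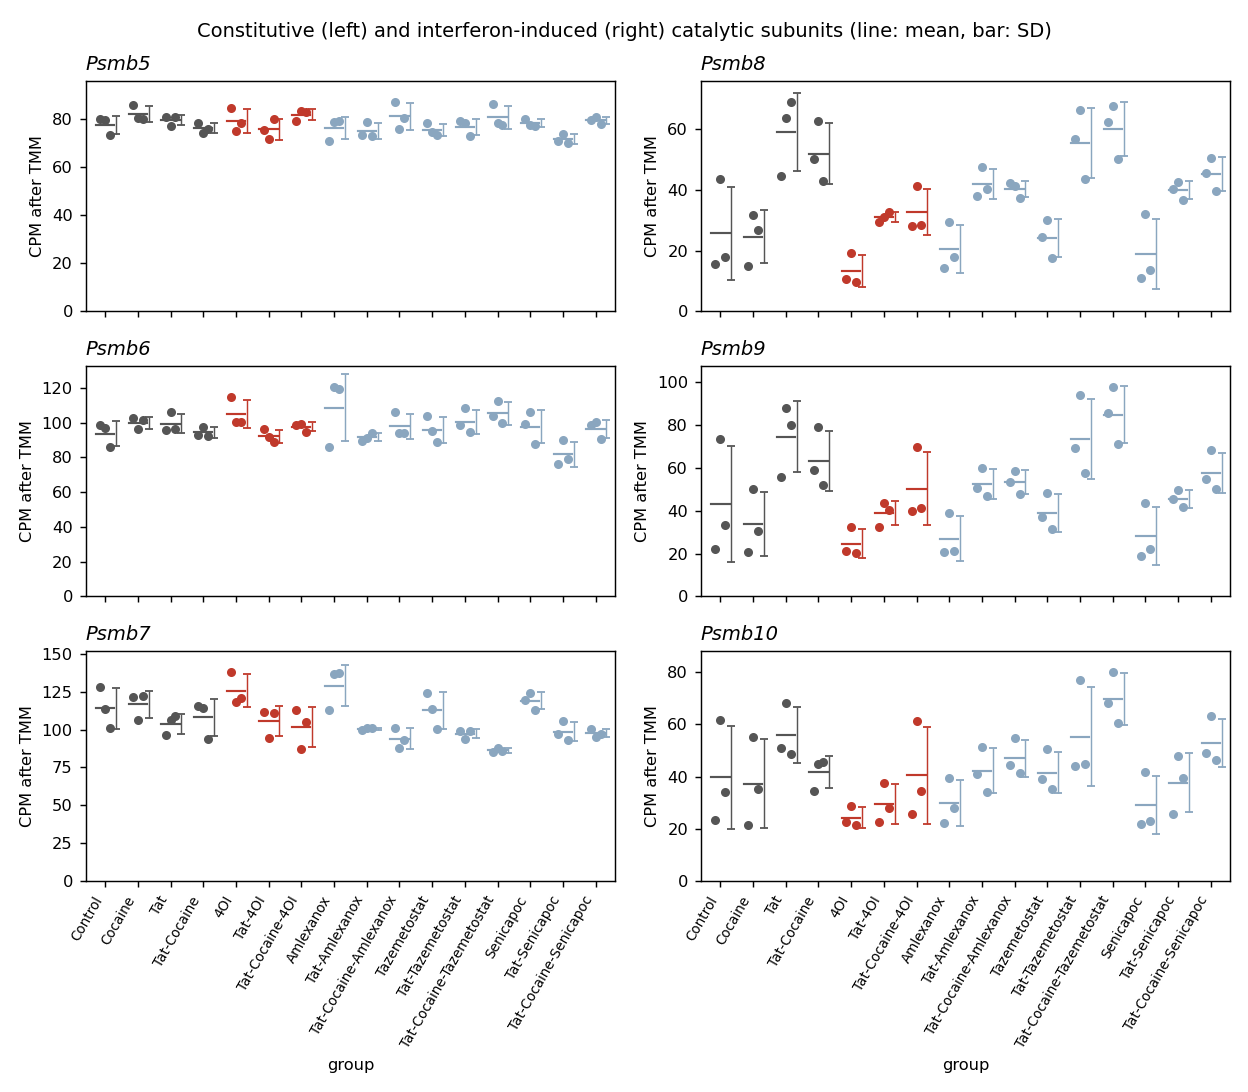
Levels in CPM after TMM scaling of the constitutive catalytic subunits Psmb5, Psmb6 and Psmb7 (left) and of Psmb8, Psmb9 and Psmb10 (right) in the 16 groups, with a point per library, a line at the mean and a bar for the SD (n = 3; red: 4OI, dark grey: no compound, light blue: other compounds). Psmb5 stays between 70.2 and 87.0 CPM, while Psmb8 runs from 9.55 to 68.8 CPM, higher in the groups with Tat.

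Other genes of the pathway were described by lists, read against the 22.8% of all genes tested that were called with averaged 4OI and the 56.5% with averaged Tat. Of the genes that control proteasome expression, 4OI raised 3 of 9 on average and lowered 0: Mafg (0.46), a partner of Nfe2l1 and Nfe2l2, Keap1 (0.44), the adaptor that marks Nfe2l2 for degradation, and Bach1 (0.26), a repressor at the same elements. Nfe2l1 and Nfe2l2 themselves were not called with 4OI. Tat raised 5 of the 9, among them Maff (1.28), Nfe2l2 (0.41), Ddi2 (0.17), Ngly1 (0.14) and Nfe2l1 (0.10). Of 10 measured genes of VCP and the shuttle factors, 4OI raised 4 and lowered 0, namely the autophagy receptor Sqstm1 (0.78), the segregase Vcp (0.28), Ubqln4 (0.19) and Rad23b (0.17). Tat raised 3 of the 10 and lowered 4, with Sqstm1 lower by 0.20 and Ubqln2 by 0.27.

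Of 6 measured components or enzymes bound to the 26S proteasome, 4OI raised the ubiquitin receptor Adrm1 (0.20) and the proteasome-binding Ecpas (0.12) and lowered the small lid subunit Sem1 (-0.30). Of 6 genes for ubiquitin and its activating enzymes, 4OI raised Uba6 (0.29) and lowered Ubb (-0.12) and Uba1 (-0.10). None of the 4 measured chaperones of the core particle was called with 4OI. With Tat, Psmg2 (0.15) and Psmg1 (0.08) rose and Psmg3 fell by 0.20 on the log2 scale. All 6 measured Nfe2l2 check genes rose with 4OI, Slc7a11 by 3.01 and Nqo1 by 2.05 on the log2 scale.

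The subunits also varied together between cultures of the same group. With the group means removed, the 78 pairs of core subunits had correlations across the 48 libraries of 0.271 to 0.854, with a median of 0.668. The 190 pairs among the 20 other subunits ran from -0.786 to 0.899, with a median of 0.187. Psmb4 followed the mean of the other core subunits the most closely (r = 0.90), and outside the core the ATPase Psmc2 did (r = 0.80). The base subunits Psmd1 (r = -0.62) and Psmd2 (r = -0.46) went the other way. The 4 regulatory subunits lower with averaged Tat had r of 0.70 (Psmc6), 0.80 (Psmc2), 0.65 (Psmd6) and 0.47 (Psmd8). The 8 that were higher with it ran from -0.62 (Psmd1) to 0.59 (Psmd4). Whether the directions with Tat followed this shared variation or the place in the complex was not tested. Within groups the core mean had r = 0.67 with the mean of 66 ribosomal protein genes and r = 0.71 with that of 78 genes of oxidative phosphorylation, against 0.02 and 0.42 for the mean of the other subunits. All points share their libraries and their scaling, and these gene sets were chosen after the subunits had been seen to vary together.

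**Figure D5:**
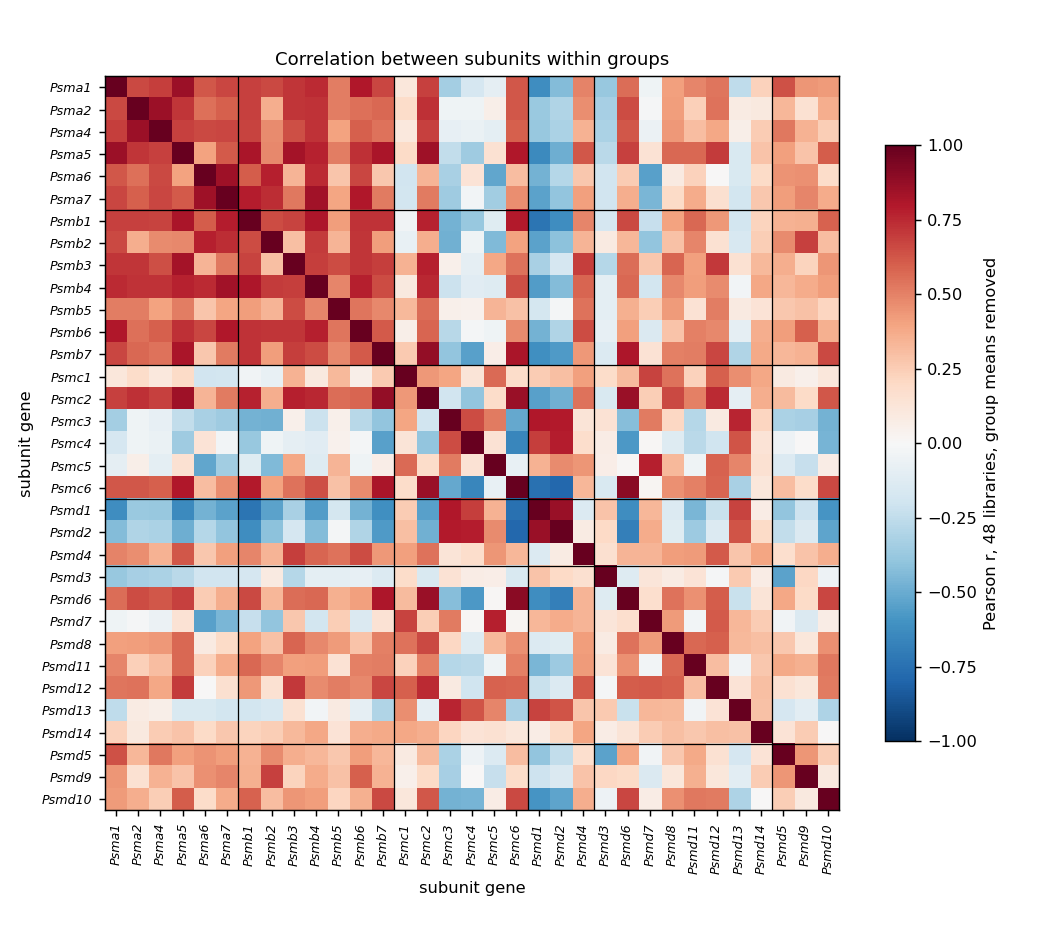
Pearson correlation between subunits across the 48 libraries after removing group means, from blue at -1 to red at 1, with lines between the places in the complex. The block of alpha and beta subunits at the upper left is red throughout (0.271 to 0.854), while Psmd1 and Psmd2 are blue against it.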

How the data were processed

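RNA was sequenced from 48 rat cortical cultures (16 groups of 3). Per the study's methods, the authors aligned the reads with STAR, assigned those that mapped uniquely to genes by featureCounts (Subread), scaled them by TMM in edgeR and deposited the resulting CPM, a signal value per gene; the submitters' processing notes name STAR 2.7.2, Subread 1.5.3, SAMtools 1.5, Trim Galore 0.4.5 and the builds mRatBN7.2 and hg38, while the methods name another rat build, so coordinates printed here come from RefSeq alone. Libraries were made from polyA RNA with a kit that marks the strand, and whether the counting used strand is not given in the sources used here. In RefSeq 10 of the 33 subunits overlap another gene. For 3 of them that gene is in the table (Psmb1 with Tbp, Psmd1 with Htr2b and Psmc6 with Styx). Partners not in the table include Rps10l6 for Psmc6, a pseudogene for Psmd14 and LOC103689966 for Psmd8. The values of all 10 are uncertain to that extent. The table's other 196 columns, which hold the authors' group averages, fold changes and p-values, were not used. Of the values above 0, 84.3 to 87.3% were whole reads within 0.02 read, too few to recover counts, so no count test was run and the design's limma test applied. Depth was back-calculated, and CPM is not scaled for gene length, so levels were not compared between genes.

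Values were analysed as log2(CPM + 0.5) in limma 3.58.1 (R 4.3.3; a mean per group over all 48 libraries, empirical Bayes with trend) for the 15890 genes at or above 0.5 CPM in 3 or more of the libraries, with Benjamini-Hochberg adjustment over all of them and a threshold of 0.05. Fold changes are on the log2(CPM + 0.5) scale. There were 27 comparisons: 16 pairwise, 6 averages, 2 differences between backgrounds and 3 between compounds. Many share cultures. The percentage of all genes called stands beside the subunits' count. The fit was also run on simulated data. Genes were drawn there independently of each other, unlike the subunits here, so that run does not give the error rate in these data. No 2 replicates agreed within sampling noise (48 pairs).

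The members and lists were chosen with earlier results of these data known. Named were Psmb5, Psmb6 and Psmb7, up to 3 called subunits with the largest rise and fall per comparison with their values, other called subunits by log2 fold change, list genes called with 4OI or Tat, Psmb8 to Psmb10, and Nqo1. Replicate numbers recur in all groups: the deviations of same-numbered cultures correlated above 0.1 in all 3 pairs in 5 of 16 pairwise comparisons (4OI, Tazemetostat, Senicapoc and Tat-Cocaine against Control, and Tat-Amlexanox against Tat), a hint from the data rather than the labels. Alternatives were other pseudocounts, filters, scalings and fits, the replicate block, and leaving out each library. The motif search covered RefSeq windows from 250 bases before to 50 after the start.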

Additional observations from a re-analysis of the deposited data

Results flagged for a closer look

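Gclm, a glutathione synthesis gene among the Nfe2l2 check genes, differed between backgrounds in its response to 4OI. It read 34.8, 39.2 and 38.1 CPM in Control and 326, 175 and 424 CPM in 4OI, against 28.2, 29.2 and 32 CPM in Tat and 135, 95.4 and 127 CPM in Tat-4OI. By the interaction contrast in limma, the 4OI difference with Tat less that without it was -0.97 on the log2 scale (adjusted p = 0.0433), and the same with Tat-Cocaine was -1.12 (adjusted p = 0.0316). It was higher with 4OI in 9 of 9 cultures, and both contrasts share the 4OI and Control cultures. No proteasome subunit passed this test, and groups of 3 are too small for an outlier test.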

How the results depend on the processing

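The rises of Psmd5 and Psmd11 with 4OI averaged over 3 backgrounds passed the threshold under every alternative run and without each single library, at 0.72 to 0.77 and 0.31 to 0.34 on the log2 scale without 1 library. The subunit count for 4OI averaged over 3 backgrounds stayed at 6 to 9, and that for Tat averaged over 5 backgrounds at 18 to 25. Counts of the pairwise comparisons moved more, and the cause was not tested. With a pseudocount of 0.1 CPM, Tat-Senicapoc against Tat had 0 calls. Without a filter on low values, Amlexanox against Control had 2 and averaged Tazemetostat 1. With each library rescaled to the same CPM total the counts were 1 for Tat against Control, 1 for Tat-Cocaine against Control, 3 for 4OI against Control, 0 for Amlexanox against Control, 0 for Tat-Senicapoc against Tat, 5 for averaged Tazemetostat, 1 for averaged Senicapoc, 0 for averaged Cocaine and 4 for 4OI less Senicapoc. With median ratio rescaling they were 3, 2, 3, 3 and 0 for the first 5 of these. With quantile normalization they were 3 for Tat against Control, 3 for 4OI against Control, 1 for Tat-Amlexanox against Tat, 0 for Tat-Senicapoc against Tat, 1 for averaged Senicapoc and 4 for 4OI less Senicapoc. Without a trend in the variance they were 2 for Tat-Cocaine against Control, 5 for 4OI against Control, 3 for Amlexanox against Control, 0 for Tat-Senicapoc against Tat and 1 for averaged Cocaine.

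With the replicate block the counts were 4 for Tat-Cocaine-4OI against Tat-Cocaine, 3 for Tat-Amlexanox against Tat, 1 for Tat-Cocaine-Amlexanox against Tat-Cocaine, 6 for Tat-Senicapoc against Tat, 4 for averaged Senicapoc and 1 for the 4OI difference with Tat less that without. The other counts stayed within 1.5 times, and except for Tat-Amlexanox against Tat the pairwise comparisons among these share only a number. In fits to the compared groups alone the counts were 0 for Tat against Control, 0 for Tat-Cocaine against Control, 1 for 4OI against Control, 2 for Tat-4OI against Tat, 1 for Tat-Cocaine-4OI against Tat-Cocaine, 0 for Amlexanox against Control, 0 for Tat-Cocaine-Tazemetostat against Tat-Cocaine, 0 for Tat-Senicapoc against Tat, 1 for averaged Amlexanox and 1 for averaged Tazemetostat, with fewer samples for the spread. With the block added to those fits, an alternative chosen after seeing the data, they were 0, 0, 1, 2, 0, 0, 0 and 0 for the first 8 of these, 1 for averaged Tazemetostat, 2 for averaged Senicapoc, 6 for averaged Cocaine and 11 for 4OI less Senicapoc. In the 21 libraries without the other compounds they were 2 for Tat against Control, 0 for Tat-Cocaine against Control and 3 for 4OI against Control. Without the Tat-Cocaine-Tazemetostat cultures, also chosen after seeing the data, averaged Tazemetostat had 0 calls.

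Without 1 library the counts ran from 3 to 12 for 4OI against Control, 2 to 5 for Tat-4OI against Tat, 2 to 4 for Tat-Cocaine-4OI against Tat-Cocaine, 3 to 6 for Tat against Control, 0 to 2 for Tat-Cocaine against Control, 0 to 12 for Amlexanox against Control, 0 to 8 for Tat-Cocaine-Tazemetostat against Tat-Cocaine, 0 to 1 for Tat-Senicapoc against Tat, 0 to 2 for Tat-Cocaine-Amlexanox and for Tat-Cocaine-Senicapoc against Tat-Cocaine, 1 to 6 for averaged Amlexanox, 1 to 5 for averaged Tazemetostat, 0 to 3 for averaged Senicapoc, 0 to 3 for averaged Cocaine and 0 to 2 for the 4OI difference with Tat less that without. Subunits that were not called changed sign near 0. With each library rescaled to the same CPM total, Psmb5 with 4OI against Control was at -0.059, Psmb6 with Tat-Cocaine-4OI against Tat-Cocaine at -0.010, and averaged 4OI at -0.032 for Psmb5, -0.016 for Psmb6 and -0.025 for Psmb7. With median ratio rescaling, Psmb5 was at -0.0065 against Control and -0.00015 averaged. With quantile normalization, Psmb5 was at -0.020 and -0.0047, and Psmb7 averaged at -0.0044. Without the Control background, averaged 4OI was at -0.029 for Psmb6 and -0.032 for Psmb7. Without 1 library, Psmb7 averaged was between -0.0058 and 0.062, Psmb7 in Tat-4OI against Tat between -0.028 and 0.10, and Psmb5 with 4OI against Control between -0.019 and 0.069. For the Tat-Cocaine background, Psmb7 with 4OI was between -0.18 and 0.019 and Psmb10 between -0.47 and 0.15. The SE of a subunit in a pairwise comparison was 0.050 (Psmd14) to 0.153 (Psmd10) on the log2 scale, which limits the changes that 3 cultures a group could show.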
